A study of Mus musculus with 4 samples.

Results

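Sox6 encodes a transcription factor of the SoxD group, whose HMG box binds DNA. The contacts described here are the H3K27ac HiChIP interactions listed around this gene in somatostatin (SST) interneurons and in vasoactive intestinal peptide (VIP) interneurons of the adult mouse cortex. A member is any interaction with at least one anchor that overlaps, by 1 bp or more, the mm9 window chr7:122600000-123250000. This 650 kb window covers Sox6 with both flanks, and the promoter side of the gene is its high-coordinate end. In the SST list 69 of 8278 interactions were members, and in the VIP list 0 of 6733, so 69 of 15011 in all. The window was chosen by its listed interactions, many in SST and none in VIP, so these counts are a description and were not tested.

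In HiChIP, crosslinked chromatin is cut, nearby ends are joined, and the joined fragments that carry a chosen mark are captured with an antibody. H3K27ac marks active promoters and enhancers, and the capture needs the mark on the joined fragment, not at both of its ends. The paired stretches of a listed interaction are called anchors, and acetylation at single anchors was not analysed here. Nuclei came from C57BL/6 mice and were captured with a Cre-dependent tag on the nuclear envelope protein Sun1 (INTACT). Mice of the SST group were of genotype Sst-cre; Sun1 and those of the VIP group of genotype Vip-cre; Sun1; all were adult and no treatment is labelled. A group is therefore all cortical cells in which the driver was active, and how many animals went into a sample is not stated in these sources. The labels describe 2 samples per group, and 1 list per group was analysed, attached to replicate 1. There was thus no spread between replicates, no test between the groups was possible, and intervals below cover counting error only. They treat interactions as independent, although many share an anchor, so they are too narrow. The lists give positions without read counts, and the depth behind them is unknown.

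Sox6 is known as a gene of the interneurons that arise in the medial ganglionic eminence, the source of the SST and parvalbumin classes. It acts there downstream of the homeodomain factors Nkx2-1 and Lhx6 and is needed for these cells to settle and mature. VIP interneurons arise mainly in the caudal ganglionic eminence, where other regulators, such as Prox1, are used. Values for the other genes of this pathway and for the cell type markers were not analysed here, because no annotation of build mm9 was used. In the RefSeq gene order of GRCm38, the nearest protein-coding genes are Insc on the low-coordinate side and 1110004F10Rik, followed by Plekha7, on the high-coordinate side. The 3 genes next to Sox6 on the low side are the lncRNA gene Gm45999, the pseudogene Rpl19-ps10 and the lncRNA gene Gm34282. On the high side they are 1110004F10Rik, the lncRNA gene 1700003G18Rik and the pseudogene Gm4353. Sox6 itself is overlapped by the lncRNA genes Sox6os and Gm51455.

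RefSeq lists 6 start sites of Sox6, all on the minus strand. The 250 bases before the outermost pair are shown because one of the 2 busiest SST anchors of the window lies on this side of the gene. They are printed 5′ to 3′ on the minus strand with their GRCm38.p6 positions. These positions were not converted to mm9, so which anchor holds each start was not determined. Capitals mark matches on either strand to the motifs looked for, other than CANNTG.
Start 1, chr7:116038745-116038994: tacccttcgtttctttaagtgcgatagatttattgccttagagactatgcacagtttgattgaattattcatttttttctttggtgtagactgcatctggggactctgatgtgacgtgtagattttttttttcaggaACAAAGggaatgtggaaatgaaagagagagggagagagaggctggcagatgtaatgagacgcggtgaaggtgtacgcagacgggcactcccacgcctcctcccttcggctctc
Start 2, chr7:116031048-116031297: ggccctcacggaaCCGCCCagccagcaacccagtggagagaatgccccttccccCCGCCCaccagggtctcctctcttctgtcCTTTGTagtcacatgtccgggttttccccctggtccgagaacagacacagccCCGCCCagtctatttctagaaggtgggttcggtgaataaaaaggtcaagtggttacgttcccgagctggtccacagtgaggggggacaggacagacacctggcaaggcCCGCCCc

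The outermost start lay in a sequence of 45.2% G and C with 9 CG dinucleotides, against a median of 52.4% G and C over 32851 RefSeq promoters of this length. The second start was richer, at 60.8%, and held 4 matches to the GC box GGGCGG, at positions -237, -196, -115 and -7 from the start. A GC box was present in 32.7% of all promoters and before 1 of the 6 Sox6 starts. The motif ACAAAG, a form of the sequence that SOX proteins bind, was found before 5 of the 6 Sox6 starts and in 16.5% of all promoters. It lay at -113 before the first start and at -167 before the second. Starts 3 to 5 lay in sequences of 41.6% G and C and start 6 in one of 34%, below the promoter median. The shares over all promoters were not matched for G and C content, so no enrichment is read from them. ACAATG, a related form, was found before 2 starts (10.7% of all promoters). TATAAA was found before 1 start (12.4%), at -225. CCAAT was found before 2 (33.8%) and the E-box CANNTG before all 6 (66.2%), and these may overlap other motifs. CACGTG (6.02% of all promoters), which is also a CANNTG match, had no match before a Sox6 start. Nor did TAATTA (4.84%), TGANTCA (6.75%) or TGACGTCA (1.55%). GATC, which the enzyme MboI of the HiChIP protocol cuts, occurred before 3 of the 6 starts (41.9% of all promoters), and before neither of those printed. A match is a description of these letters and not a binding site.

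The SST members joined 35 anchors over 1.09 Mb, from 122254113 to 123343879 on chromosome 7 (mm9). Of the anchors, 24 lay in the window, 10 below it and 1 above it. The window anchors covered 379 kb, or 58.3% of the window. Member anchors had a median width of 9.38 kb, with a range of 4.22 to 86.0 kb, and the whole SST list had a median of 11.8 kb. Neighbouring anchors were separated by a median of 9.67 kb. The members made up 8.34 per 1000 interactions of the SST list (Poisson interval 6.49 to 10.5).

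**Figure D1:**
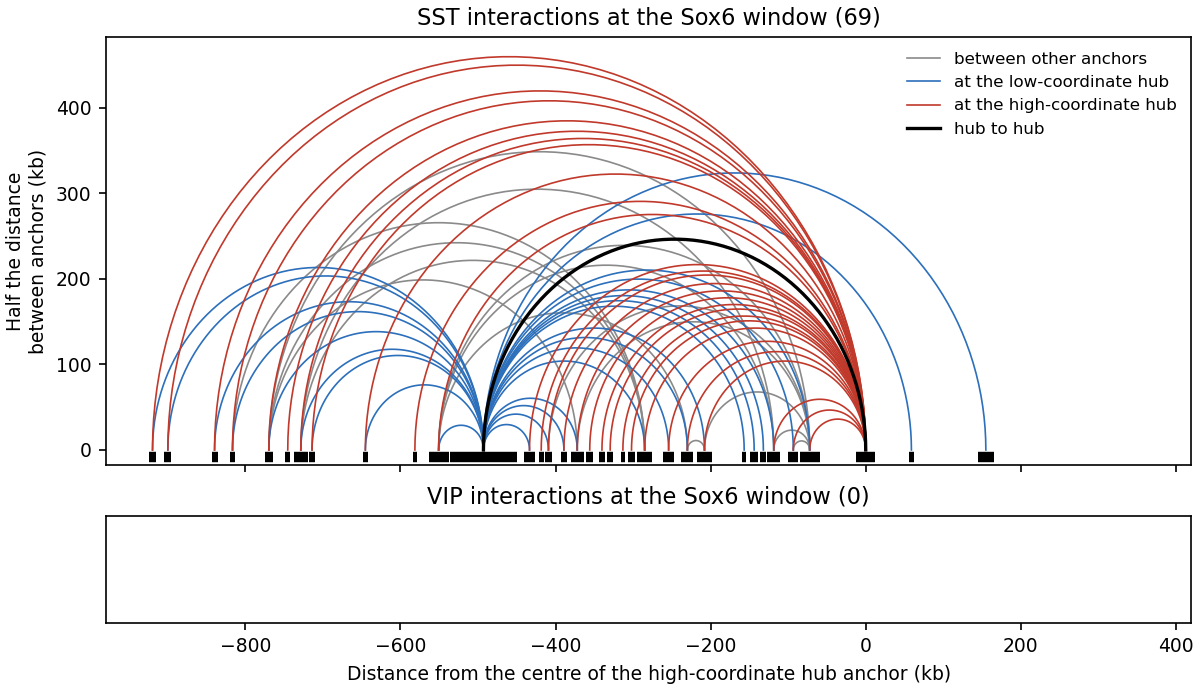
Interactions with an anchor in the Sox6 window, SST above and VIP below; the x axis is the distance in kb from the centre of the promoter-side hub anchor, arcs are interactions, their height is the distance between the anchors divided by 2, and black bars are anchors at their width. Of the 69 SST arcs, 54 end at one or both of a pair of anchors 493 kb apart and 15 at neither, and the VIP panel is empty.

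A pair of anchors dominated this set. As listed, the busier one lay on the promoter side, at chr7:123165883-123191014, and took part in 29 interactions (Poisson interval 19.4 to 41.6). The second, at chr7:122642471-122728442, lay toward the other end of the window and took part in 26 (17.0 to 38.1). By this number they held ranks 3 and 4 among the 5842 SST anchors, the latter shared with 1 other anchor. Which of them comes first depends on how anchors are divided: with anchors merged within 5 kb the low-coordinate hub had 20 interactions and the promoter-side hub 19, and within 10 kb they had 15 and 14. The promoter-side hub was 25.1 kb wide and held 11.5 interactions per 10 kb of its width. The low-coordinate hub was 86.0 kb wide, a width that only 2 anchors of the list reached, itself included, and held 3.02 per 10 kb. Across the 35 anchors, width and number of interactions had a Spearman correlation of 0.72, against 0.62 over all SST anchors; these anchors share a library and are not replicates.

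The hubs were linked to each other over 493 kb. Of the 22 SST anchors with 20 or more interactions, 4 pairs lay within 1 Mb of each other, and all 4 pairs were linked, this one included. Together the hubs took part in 54 of the 69 interactions, 78.3% (exact interval 66.7 to 87.3%). The hubs were picked as the busiest anchors of these same interactions, and the interval does not allow for that choice. Each of the other 33 anchors was linked to a hub. Of these, 20 were linked to both, 8 to the promoter-side hub alone and 5 to the low-coordinate hub alone. All 13 anchors with a single member interaction had it with a hub, 8 with the promoter side and 5 with the low-coordinate side. All 8 anchors with 2 interactions had one with each hub. In all, 40% of the member anchors took part in 3 or more interactions, and 34.4% of all SST anchors did.

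**Figure D2:**
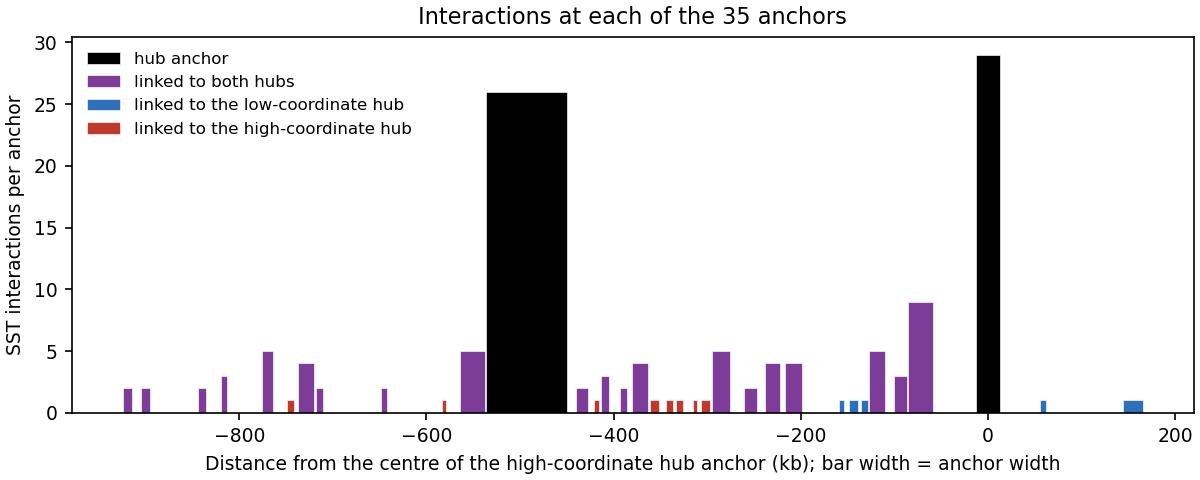
Number of member interactions at each of the 35 SST anchors (y axis) by distance in kb from the centre of the promoter-side hub anchor (x axis), with bar width equal to anchor width and colour for the hubs an anchor was linked to. The hubs stand at 29 and 26 interactions, the third anchor at 9, and the others at 1 to 5.

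The promoter-side hub was linked in one direction only. All 29 of its partners lay at lower coordinates, toward the gene and past it, at 72.2 to 920 kb with a median of 409 kb. No listed partner lay on its high-coordinate side, but only 2 of the 35 member anchors lay there. The low-coordinate hub had 9 partners below it and 17 above, at 57.8 to 648 kb with a median of 304 kb. Among its partners above were the 2 anchors that lay past the promoter-side hub, at 123234062 to 123240672 and 123322845 to 123343879. Its link to the second of these, over 648 kb, was the single member that left the window on the high side.

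Interactions enclosed the stretch between the hubs and nearly stopped past the promoter side. Each of the 21 gaps between neighbouring anchors from one hub to the other was spanned by 31 to 44 member interactions. The gap just above the promoter-side hub, 43.0 kb long, was spanned by 2, both from the low-coordinate hub, and the next gap by 1. Below the low-coordinate hub the number went down from 29 at its edge to 2 at the outermost gap. The nearest SST interaction outside the rule joined chr7:123322845-123343879 to chr7:123358470-123376413 over 34.1 kb; it shares an anchor with a member.

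Between the hubs lay 20 anchors, of which 11 were linked to both, 6 to the promoter-side hub alone and 3 to the low-coordinate hub alone. Of these 9 single-hub anchors, 8 fell in a pair of runs. A run of 5 neighbouring anchors from 122817790 to 122881059 was linked to the promoter-side hub alone, over 302 to 356 kb. A run of 3 anchors from 123018986 to 123050424 was linked to the low-coordinate hub alone, over 336 to 361 kb. The latter lay only 132 to 157 kb from the promoter-side hub, to which no link was listed. Each anchor of these runs had 1 interaction.

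Below the low-coordinate hub lay 11 anchors, and all were linked to the promoter-side hub. Of these, 9 were linked to both hubs. The 10 anchors outside the window on this side gave 24 of the 25 interactions that left it, 18 with a hub and 6 with other anchors. No SST interaction joined 2 of these 10 anchors to each other. The longest member joined the outermost, at 122254113 to 122263304, to the promoter-side hub over 920 kb. The longest interaction of the whole list spans 999.7 kb, and contacts beyond that do not appear in it.

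The third anchor, at chr7:123093259-123119210, had 9 interactions and lay 72.2 kb below the promoter-side hub. It was linked to both hubs and took part in 7 of the 15 members that touched neither hub. A further 4 anchors had 5 interactions each. One lay outside the window, at 122403127 to 122414251. The second, at 122614813 to 122640558, was the lowest anchor in the window, 1.91 kb from the edge of the low-coordinate hub. The remaining ones lay between the hubs, at 122883685 to 122903064 and at 123051367 to 123068364. Among these 7 busiest anchors 16 of 21 pairs were linked. Of the 5 pairs without a link, 3 involved the anchor that starts at 122883685, which was linked to both hubs and to none of the anchors starting at 122614813, 123051367 and 123093259. At the high end of the window, the anchor at 123234062 to 123240672 had 1 interaction.

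Away from the hubs, links were few and often long. The 15 members that touched neither hub spanned 21.2 to 698 kb with a median of 398 kb. The shortest of all members, 21.2 kb, joined the third anchor to its neighbour at 123078601 to 123091506. Only 6 of the 190 possible pairs among the 20 anchors between the hubs were linked. Without the hubs, 9 of 231 pairs of window anchors were linked, 3.90% (1.80 to 7.27%), against 44 of 276 pairs, 15.9% (11.8 to 20.8%), with them. The hubs are the anchors with most interactions, so the lower share without them follows from their choice.

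Member interactions were longer than those of the list. Their median distance was 349 kb (order-statistic interval 302 to 409 kb) with quartiles of 236 and 485 kb, and the SST list had a median of 178 kb. Of the members, 56 spanned more than 200 kb (81.2%, against 47.8% of the list) and 3 spanned up to 50 kb (4.35%, against 24.0%). Distances run between midpoints, which lengthens links of wide anchors. The low-coordinate hub is 86.0 kb wide, so its link to an anchor 1.91 kb from its edge counts as 57.8 kb. Between nearest edges the median of the members was 320 kb. The shortfall at close range is also seen per pair of listed anchors. In the window 3 of 41 pairs up to 50 kb apart were linked, 7.32% (1.54 to 19.9%), while the autosomes of the SST list stood at 46.6% of 4263 pairs. The autosomes include small groups of anchors. The other connected groups with 50 or more interactions, described below, stood at 39.7% of 833 pairs. At 50 to 100 kb the window stood at 10.4% of 48 pairs and the autosomes at 32.0% of 3792. At 100 to 200 kb the values were 5.13% of 78 pairs and 19.2% of 5839. At 200 to 400 kb they were 25.6% of 90 pairs (16.9 to 35.8%) and 21.6%, the latter within the interval of the former. At 400 to 650 kb they were 47.4% of 19 pairs (24.4 to 71.1%) and 16.5% of 8399. The window shares count only pairs among the 24 anchors in the window. They leave out the 10 member anchors below it and the 1 above it, while the other sets count all their anchors. The sets are thus unlike, most of all at long range. A share over all 35 member anchors was not computed, so no long-range excess of the locus is read from these values. The high values at long range came with the hubs: without them 2 of 12 window pairs at 400 to 650 kb were linked, 16.7% (2.09 to 48.4%), and 3 of 70 at 200 to 400 kb, 4.29% (0.893 to 12.0%). The hubs were chosen for their many links, so lower shares without them follow from that choice. Busy anchors were not left out of the autosome values, which are thus no like comparison for the shares without hubs. Pairs share anchors, so these intervals are too narrow, and an anchor is in the list only through an interaction.

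**Figure D3:**
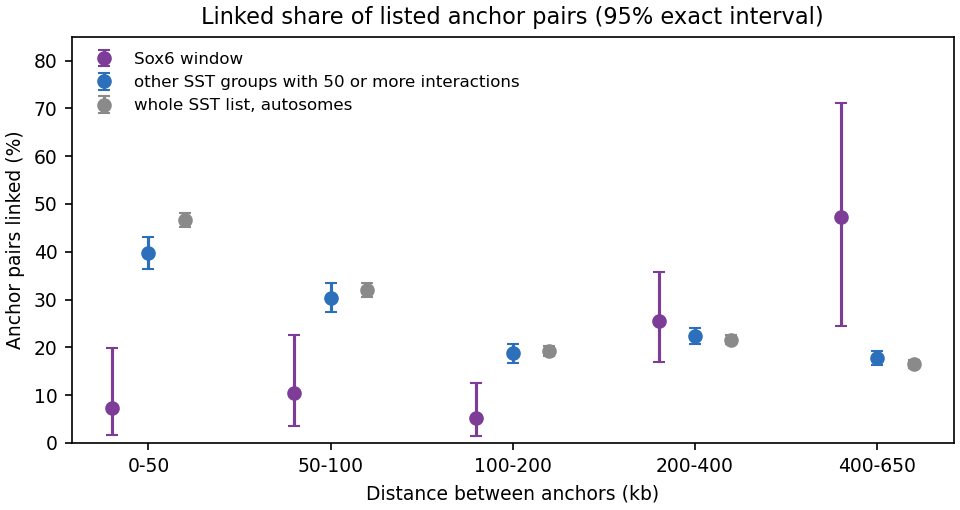
Share of listed anchor pairs that were linked in SST (y axis, %) by distance between the anchors (x axis, kb), for the Sox6 window, the other connected groups with 50 or more interactions and all autosomes; bars are exact 95% intervals for counting error. The Sox6 window stands at 7.32% up to 50 kb and 47.4% at 400 to 650 kb, the other groups at 39.7% and 17.7%. The window set holds only its 24 anchors and leaves out member anchors outside it, while the other sets hold all their anchors, so the long-range shares are no like comparison. Without its hubs the window stands at 16.7% at 400 to 650 kb, a share that was not computed for the other sets.

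The Sox6 group was set beside other groups of SST anchors joined directly or through one another by interactions. With the neighbouring link it had 70 interactions and ranked 12th of 128 groups with 20 or more. Of its interactions 77.1% touched its 2 busiest anchors. Among the 28 other groups with 50 or more interactions this share ran from 21.0 to 67.2% with a median of 45.4%, and none reached the Sox6 value. Of the 127 other groups with 20 or more interactions, 19 reached it, all of them smaller. The closest of the large groups were on chromosome 1 from 166235679 to 167170334, at 67.2% of 58 interactions, and on chromosome 7 from 97588991 to 99583249, at 61.0% of 59. In 27 of the 28 other large groups the 2 busiest anchors were also linked to each other, so a linked pair was the usual state. Median distance did not set Sox6 apart from these groups: with 348 kb it ranked 12th of the 29 large groups, whose other members ran from 79.4 to 474 kb. The share at the 2 busiest anchors was examined after the hubs had been seen, and no test was made of it.

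**Figure D4:**
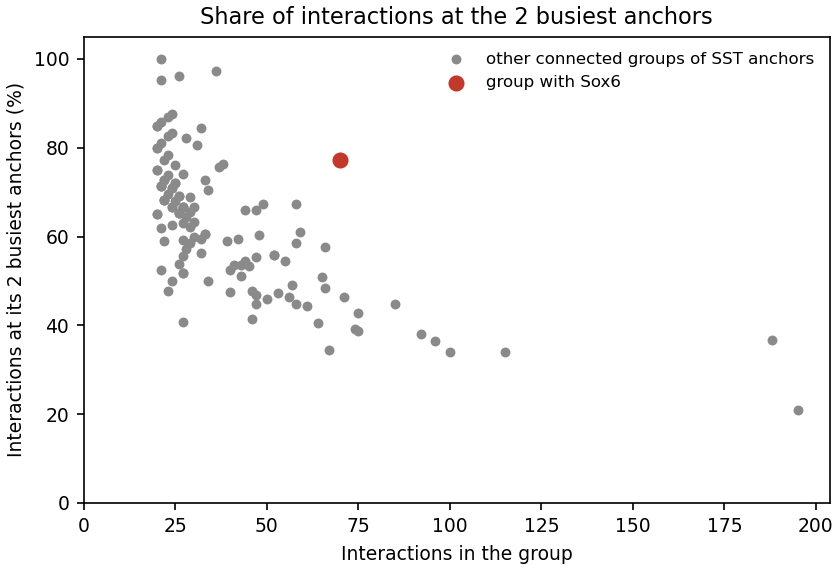
Share of interactions that touch the 2 busiest anchors (y axis, %) against the number of interactions (x axis), for each connected group of SST anchors with 20 or more interactions. The group with Sox6 lies at 70 interactions and 77.1%, above the 28 other groups with 50 or more, of which the highest is at 67.2%.

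VIP had no interaction at the window. This 0 was set against a limit of 3 interactions, which is 0.446 per 1000 of the VIP list (0.0446%). Against that limit SST was 18.7-fold higher. This takes the SST count as exact; at the lower end of its Poisson interval the value is 14.6-fold. Among interactions of up to 200 kb, with 13 in SST and 0 in VIP, SST was at least 3.59-fold higher, or 1.91-fold at the lower end. No VIP interaction spanned the window either. The nearest VIP anchors ended at 119486298, 3114 kb below the window, and started at 125438973, 2189 kb above it. This stretch of 5.95 Mb without a VIP anchor held 70 SST interactions. Of 4816 stretches between neighbouring VIP anchors on the autosomes, 5 held 70 or more SST interactions, this one included, and 97 were at least as long. Over the whole of chromosome 7 the lists were close in number, with 447 SST and 426 VIP interactions.

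None of the 35 member anchors overlapped a VIP anchor, where 63.1% of all SST anchors overlapped none. None of the 69 members was shared with VIP, where 78.6% of SST interactions were not shared, sharing being an overlap of both anchors by 1 bp or more. Windows of 650 kb were laid over the genome and counted by the same rule. Among the 332 with 20 or more interactions, 19.3% had at most 10% of them from VIP and 10.2% had none. Since the window was chosen on this contrast, nothing is read from its place in these shares. The Sox6 window was placed around the locus, while these windows lie on a fixed grid. On the grid the locus is divided between 2 windows with 56 SST and 0 VIP interactions each, and 15 other windows held 56 or more SST interactions, 4 of them with no VIP interaction. A contact missing from a list is one that was not called there, and fewer reads, fewer nuclei and less acetylation in VIP cannot be told apart from these lists.

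**Figure D5:**
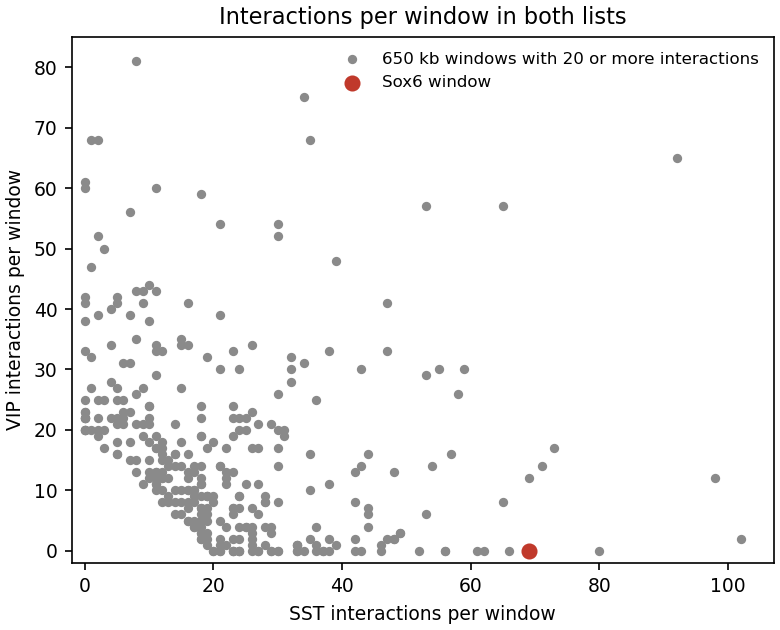
SST interactions (x axis) and VIP interactions (y axis) in each 650 kb window of the genome with 20 or more interactions in both lists together, with the Sox6 window in red. The Sox6 window lies on the x axis at 69 SST and 0 VIP interactions.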

How the data were processed

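Crosslinked INTACT nuclei were cut with MboI and carried through H3K27ac HiChIP, per the labels' protocols. HiC-Pro and mm9 are named in the submitters' processing notes; how interactions and anchors were called, and whether replicates were pooled, is not stated in these sources. The lists as deposited hold 6 columns, the chromosome, start and end of both anchors, with no read count, score or p-value. Coordinates are printed as in the files.

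Members were taken by the window rule, and distances run between anchor midpoints. Intervals are exact 95% Poisson or binomial intervals. The 0 of VIP was set against a limit of 3 interactions. The text names anchors with 5 or more interactions, the end anchors, and the shortest and the longest link. Links among the busiest anchors and links that leave the window are given mostly as counts. Other anchors that the text names were chosen after their values were seen. The members, lists and motifs were chosen with earlier results of these data known. Promoter sequences and gene order came from RefSeq tables of GRCm38.p6, with the 50 bases after each start left out. A genome was not used here. The overlap, window and grouping steps were checked on simulated lists with known answers. Scripts ran in Python 3.11.15 with scipy 1.17.1, pandas 2.3.3, numpy 2.4.6 and matplotlib 3.10.9.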

Additional observations from a re-analysis of the deposited data

How the results depend on the processing

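The count of VIP members was 0 under all 8 alternatives for the window, the merging of anchors and the distance range. No member was shared with VIP with anchors within 10 kb or a 50% overlap. The nearest VIP anchors lay 3114 kb below and 2189 kb above the window, so none of these settings could give another result. The 69 SST members became 44 with both anchors required in the window and 13 at up to 200 kb, as fewer interactions qualify by construction. Merging anchors within 10 kb left 37 members, 17 anchors (23 at 5 kb), at most 15 interactions at an anchor, the low-coordinate hub, and a median distance of 411 kb. The linked share of window pairs was then 53.6%, 28.6% at 5 kb and 7.19% for pairs of up to 200 kb. How finely anchors are divided thus sets these numbers. In the 4 settings tried, 75.7 to 79.5% of members touched the 2 busiest anchors, which were taken anew in each setting. At up to 200 kb the third anchor took the place of the promoter-side hub in this pair. No group of at least the size of the Sox6 group reached its share with anchors merged within 5 or 10 kb. These settings were chosen after seeing the data. Counting anchors in place of interactions, 84 windows held 20 or more, and 3 of these (3.57%) had at most 10% from VIP. On the fixed grid 0 windows held at least as many SST anchors as the Sox6 window, which was itself placed around the locus. No paired analysis was possible because the only list of a group carries no values for single replicates, which also kept replicates from being left out in turn. With the read depth unknown, whether contacts missing in VIP lie below detection was not tested.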
